A study of Gallus gallus with 4 samples.

Results

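The PRDM genes encode a family of transcriptional regulators that carry a PR domain, related to the SET domain of histone methyltransferases, followed in most members by zinc fingers. Some members are themselves histone methyltransferases, while others bind DNA and act through recruited partners such as histone methyltransferases, histone deacetylases and Groucho-type corepressors. In the mouse retina, PRDM1 (also called Blimp-1) acts downstream of OTX2 in newborn photoreceptor precursors and holds back the bipolar cell programme. PRDM13 acts downstream of PTF1A in mouse amacrine cell development, and PRDM8 has been studied in mouse rod bipolar and amacrine cells.

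The members were 9 named genes, PRDM1, PRDM2, PRDM4, PRDM8, PRDM10, PRDM12, PRDM13, PRDM15 and PRDM16, looked up by gene name among 18292 genes in the deposited transcript tables. By name, 7 of the 9 were found, with 20 transcripts. PRDM8 was found as LOC777386, whose gene ID the RefSeq gene table pairs with PRDM8, with 2 transcripts, which gives 8 members with gene values. PRDM12 was found through its RefSeq accession as a single transcript with no gene name in the deposited sheet, and it is described apart from the others.

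The libraries came from chick retina. Explants of embryonic day 5 received a GFP reporter driven by ThrbCRM1, a cis-regulatory element of THRB (thyroid hormone receptor beta), and the UbiqC-Tdt plasmid for TdTomato by electroporation, so that both sorted populations carried both plasmids and had the same culture of about 20 hours. Cells positive for GFP and TdTomato are called ThrbCRM1 here, and cells positive for TdTomato are called UbiqC, each with libraries A and B of polyA RNA. The groups are therefore defined by activity of a transfected element and not by a cell type, and the labels do not give a genotype or strain, or say whether explants were pooled. Nor do they say whether A and B were separate cultures, so the p-values here rest on the variation among these 4 libraries, which may be technical.

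Each library held between 15673010 and 31659766 estimated counts, with a deeper and a shallower library in each group. EGFP, the GFP reporter, stood at 9805 and 15147 TPM (a length-normalised transcript abundance) in the A and B libraries of ThrbCRM1, against 150 and 156 TPM for UbiqC. Photoreceptor markers summed to 2731 and 3108 TPM in ThrbCRM1 and to 64.7 and 65.4 TPM in UbiqC. Most of the ThrbCRM1 sums came from RXRG (1380 TPM in A and 1630 TPM in B) and RCVRN (906 and 913 TPM). Of the 15 markers tested, 9 were higher in ThrbCRM1, RCVRN, RBP3 and RXRG among them, and 5 did not pass. GNAT2, the cone transducin gene, was lower (log2 fold change -0.59, edgeR adjusted p = 0.0185). Over all tested genes, 19.9% were called higher and 20.9% lower. The GNAT2 call was lost without ThrbCRM1 A, ThrbCRM1 B or UbiqC A.

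PRDM1 was the member with the highest level in ThrbCRM1 cells and the member with the greatest difference between the populations. PRDM13 came next in both respects. PRDM2 was modestly higher in ThrbCRM1 cells, PRDM8 was lower in them, and PRDM4, PRDM10, PRDM15 and PRDM16 did not pass the test.

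The level of PRDM1 was 331 TPM in library A and 421 TPM in library B of ThrbCRM1, and 10.3 and 13.8 TPM in libraries A and B of UbiqC. Both ThrbCRM1 libraries lay far above both UbiqC libraries, and the libraries within a group differed 1.30-fold in ThrbCRM1 and 1.26-fold in UbiqC in CPM (counts scaled to the size of the library). The values rest on 26680, 17483, 451 and 1140 estimated counts in the same order of libraries, so PRDM1 was well covered in both populations. The mean was 991 ± 181 CPM (SD, n = 2) in ThrbCRM1 and 32.5 ± 5.33 CPM in UbiqC, and the log2 fold change was 4.92 ± 0.18 (SE), with an edgeR quasi-likelihood adjusted p of 1.8e-05. The ratio of the mean TPM values was 31.2. Among 16771 tested genes the fold change of PRDM1 was the 76th highest, and its place by mean TPM among the same genes was 312 in ThrbCRM1 and 8668 in UbiqC. In sorted bulk RNA, fewer cells of a type and less RNA per cell cannot be told apart, which applies to every level given here.

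PRDM1 TPM in UbiqC was 3.11% of that in ThrbCRM1 for the A libraries and 3.28% for the B libraries. EGFP TPM in UbiqC was 1.53% of that in ThrbCRM1 for the A libraries and 1.03% for the B libraries. Both transcripts therefore had a low but counted level in the UbiqC gate, and the part of EGFP-bearing cells in the UbiqC values of PRDM1 was not tested.

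PRDM13 reached 87.6 TPM in library A and 54.7 TPM in library B of ThrbCRM1, and 3.09 and 4.22 TPM in libraries A and B of UbiqC. The groups did not overlap, and the ThrbCRM1 libraries differed 1.56-fold on the CPM scale, the widest gap within a group among the 8 members. These values rest on 2444, 793, 47 and 125 estimated counts. The mean was 64.9 ± 20.0 CPM (SD, n = 2) in ThrbCRM1 and 3.48 ± 0.694 CPM in UbiqC, which is a log2 fold change of 4.18 ± 0.27 (SE; edgeR adjusted p = 0.000104). Its fold change was the 125th highest among tested genes. UbiqC TPM was 3.52% of ThrbCRM1 TPM for the A libraries and 7.72% for the B libraries.

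PRDM2, also called RIZ1, is a histone methyltransferase known as a tumour suppressor in mammals. Its ThrbCRM1 libraries had 32.2 (A) and 31.5 TPM (B), and its UbiqC libraries had 20.9 (A) and 22.7 TPM (B). The ThrbCRM1 libraries were nearly equal to each other and above both UbiqC libraries, with a log2 fold change of 0.49 ± 0.07 (SE; edgeR adjusted p = 0.00248). PRDM2 was thus expressed in both populations, with a ratio of mean TPM values of 1.46.

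PRDM8 is a partner of the bHLH factor BHLHE22 in mouse cortical neurons, where the proteins form a repressor complex. Its ThrbCRM1 libraries had 5.18 (A) and 3.84 TPM (B) against 12.9 (A) and 9.97 TPM (B) for UbiqC, from 150, 58, 204 and 307 estimated counts. Both UbiqC libraries lay above both ThrbCRM1 libraries, and the log2 fold change was -1.38 ± 0.23 (SE; edgeR adjusted p = 0.00439). It was the member that went against the direction of the other 7. Its partner BHLHE22 stood at 103 and 104 CPM in ThrbCRM1 against 87.5 and 73.8 CPM in UbiqC, which is a log2 fold change of 0.36 ± 0.10 (edgeR adjusted p = 0.0264). The BHLHE22 call was lost without ThrbCRM1 A, ThrbCRM1 B or UbiqC B, with adjusted p-values of 0.140, 0.109 and 0.0658.

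The other 4 members were higher in both ThrbCRM1 libraries than in both UbiqC libraries, by amounts that did not pass the test. Of all tested genes, 72.0% had the libraries of the groups separated in this way, in either direction. PRDM15, a zinc finger regulator of pluripotency in mouse embryonic stem cells, stood at 18.8 and 22.5 TPM in ThrbCRM1 against 16.6 and 16.9 TPM in UbiqC (log2 fold change 0.24 ± 0.11, edgeR adjusted p = 0.145). PRDM16, which controls neural stem cells and brown fat in mouse, stood at 1.30 and 1.21 TPM in ThrbCRM1 against 0.940 and 0.902 TPM in UbiqC (0.38 ± 0.20, adjusted p = 0.173). At this level PRDM16 was the least abundant of the 8 in both populations.

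PRDM10, a zinc finger factor needed for early mouse development, stood at 40.2 and 35.6 TPM in ThrbCRM1 against 32.9 and 33.7 TPM in UbiqC (log2 fold change 0.13 ± 0.07, edgeR adjusted p = 0.216). PRDM4, which binds the p75 neurotrophin receptor in mammals and is also called SC1, stood at 29.0 and 29.1 TPM in ThrbCRM1 against 24.6 and 26.1 TPM in UbiqC (0.12 ± 0.08, adjusted p = 0.257). For these genes a difference near or below the size seen for PRDM2 was not separated from the spread between libraries, which does not show that their levels were equal.

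PRDM12, a factor of nociceptive sensory neurons in mammals, had 1 and 2 estimated counts in ThrbCRM1 A and B, and 0 in both UbiqC libraries. The ThrbCRM1 values correspond to 0.0331 and 0.127 TPM. A count of 0 allows up to 3 counts, or 0.191 CPM in UbiqC A and 0.0948 CPM in UbiqC B, for counting error alone. PRDM12 was not tested and no difference was detectable at this depth.

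In all, 3 of the 8 members passed the edgeR test as higher in ThrbCRM1 (PRDM1, PRDM13 and PRDM2) and 1 as lower (PRDM8), beside 40.8% of all tested genes called in either direction, 19.9% higher and 20.9% lower. Of all genes 3333 were called higher and 3506 lower, against 1888 and 1958 without ThrbCRM1 A and 2223 and 2323 without ThrbCRM1 B, while the members' counts did not change. The share of members called was thus close to that of all genes, and the members with large fold changes were PRDM1 and PRDM13. Of the 7 matched by name, 3 were higher, and the other 4 also had unadjusted edgeR p-values above 0.05. All 8 had both libraries of a group on the same side of both libraries of the other, as had 72.0% of all tested genes. The median log2 fold change was 0.31 over the 8 members and -0.01 over all tested genes. All 8 passed the filter on low counts.

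**Figure D1:**
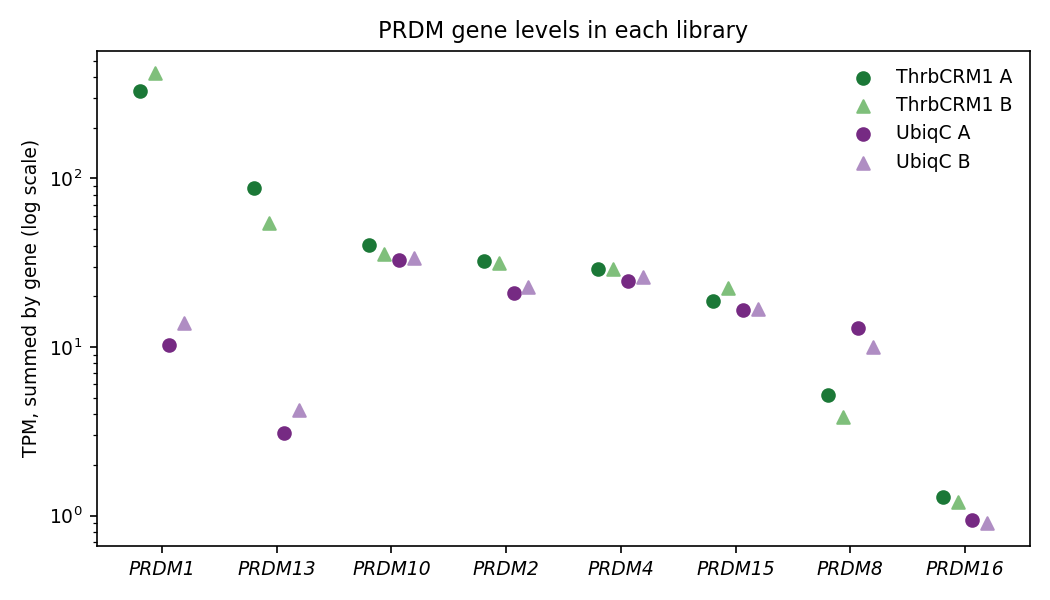
TPM summed by gene, on a log axis, for the 8 PRDM members with gene values in the 4 libraries, with circles for A and triangles for B. PRDM1 (331 and 421 TPM against 10.3 and 13.8 TPM) and PRDM13 stand far apart between the groups, PRDM8 is higher in UbiqC, and the other 5 lie close together.

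**Figure D2:**
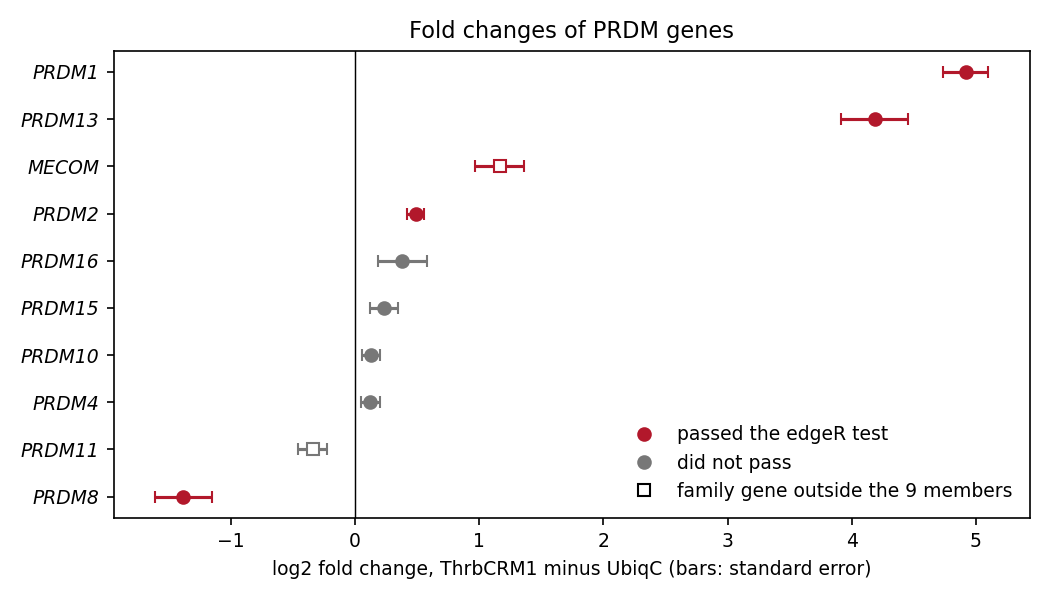
The log2 fold changes of the 8 PRDM members (circles) and of MECOM and PRDM11 (squares), ThrbCRM1 minus UbiqC, with bars for the standard error and red for genes that passed the edgeR test. PRDM1 at 4.92 and PRDM13 at 4.18 lie far to the right, and PRDM8 at -1.38 lies to the left.

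The order of the family by level differed between the populations. In ThrbCRM1 the mean TPM fell from PRDM1 through PRDM13, PRDM10, PRDM2, PRDM4, PRDM15 and PRDM8 to PRDM16, and each gene was above the next in both libraries. In UbiqC the order was PRDM10, PRDM4, PRDM2, PRDM15, PRDM1, PRDM8, PRDM13 and PRDM16. There the ranges of PRDM1 and PRDM8 overlapped, and the other neighbours were separated.

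The summed level of the 8 members was 545 (A) and 599 TPM (B) in ThrbCRM1, against 122 (A) and 128 TPM (B) in UbiqC. PRDM1 took 60.7% and 70.2% of this sum in ThrbCRM1, against 8.43% and 10.8% in UbiqC. PRDM13 took 16.1% and 9.13% in ThrbCRM1, against 2.53% and 3.29% in UbiqC. The 6 other members summed to 127 and 124 TPM in ThrbCRM1 and to 109 and 110 TPM in UbiqC, so nearly all of the difference in family level lay in PRDM1 and PRDM13.

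The authors' deposited table gave effects on a natural log scale, where a negative value means higher in ThrbCRM1. In that table q was below 0.05 for 5 of the 8 members, 4 higher and 1 lower in ThrbCRM1, beside 39.9% of all its genes. The authors' deposited table lists PRDM1 at -3.39 (q = 5.0e-70), PRDM13 at -2.90 (q = 2.9e-27), PRDM2 at -0.333 (q = 1.5e-08) and PRDM8 at 0.980 (q = 3.8e-06). PRDM15, which did not pass edgeR, stood at -0.205 (q = 0.00704) in the authors' deposited table. That table was made from the same 4 libraries.

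Most of the PRDM1 signal came from a single transcript model. Transcript XM_004940353.2 held 95.0% and 96.0% of the estimated counts of PRDM1 in ThrbCRM1 A and B and 83.4% and 93.1% in UbiqC A and B. A further transcript, XM_015284539.1, held 15.7% in UbiqC A and between 1.94% and 4.13% in the other 3 libraries. The rise of PRDM1 was thus seen in its leading transcript, and a different use of transcripts between the populations was not separated from the difference between the UbiqC libraries. kallisto divides reads shared by transcripts of a gene, so these shares are estimates and were not tested.

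PRDM10 was divided mainly between XM_004947975.2 and XM_015298114.1. The former held 68.2% and 64.1% in the A libraries of ThrbCRM1 and UbiqC, and 49.6% and 47.4% in their B libraries. Its share was higher in A than in B in both populations, so it followed the letter of the library and not the sorted group. The 2 transcripts of PRDM8 showed the opposite arrangement, since XM_015276522.1 was at 0 in both ThrbCRM1 libraries and held 24.3% and 10.1% of the counts in UbiqC A and B. That transcript had 49.5 and 30.9 estimated counts in UbiqC. The totals of PRDM8 in ThrbCRM1 A and B were small, at 150 and 58 estimated counts, and its shares were not tested. PRDM13 and PRDM16 had 1 named transcript each, and the leading transcripts of PRDM2 and PRDM4 held at least 87.7% of their gene in each library. The leading transcript of PRDM15 held between 63.7% and 70.9%. A further transcript without a gene name was left out of the sums of PRDM1, PRDM10, PRDM15 and PRDM16. For PRDM16 it had 11.3 estimated counts in UbiqC B, beside 116 of the named transcript, and 0 in the other libraries. For PRDM1 it had 14.0 in ThrbCRM1 A and 4.07 in UbiqC B, and 0 in the other libraries. For PRDM10 and PRDM15 it stood at or near 0.

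**Figure D3:**
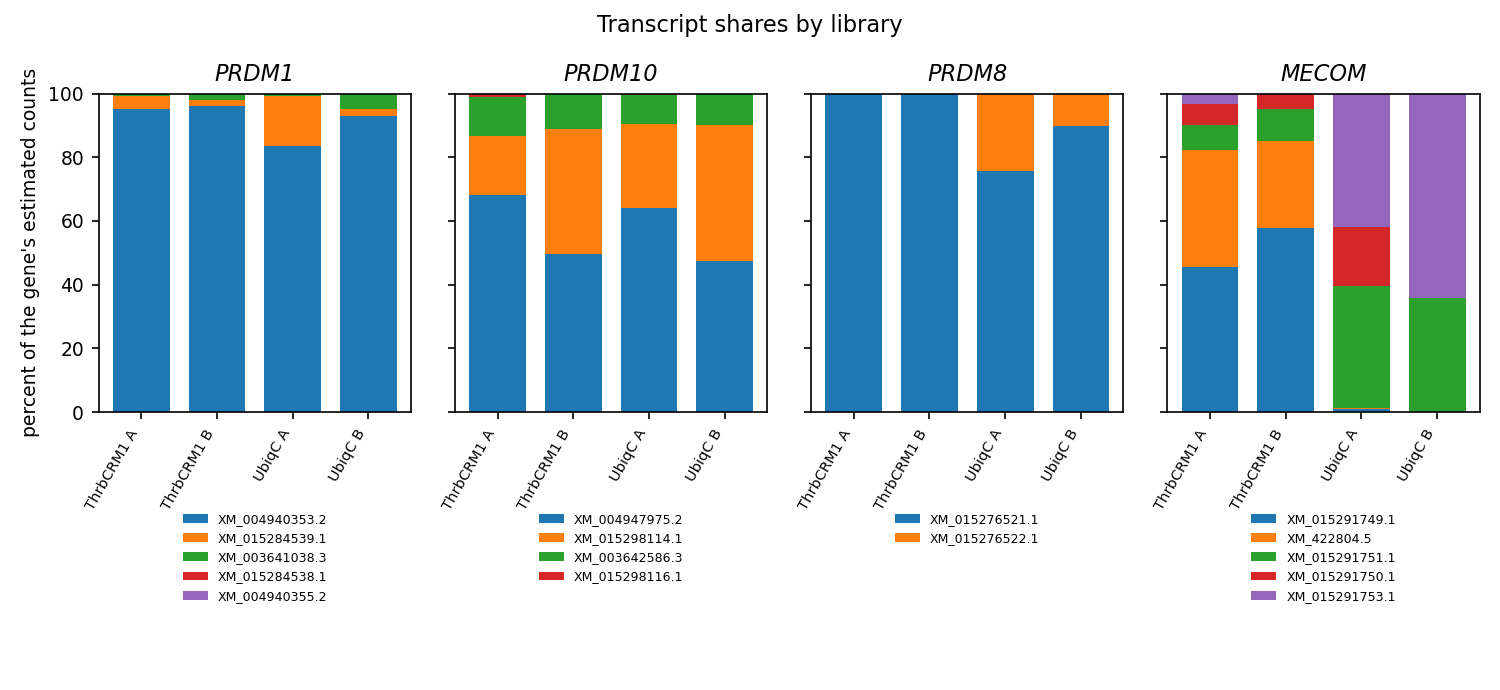
Share of each gene's estimated counts, in percent, held by each of its transcripts in the 4 libraries for PRDM1, PRDM10, PRDM8 and MECOM. PRDM1 is led by a single transcript in each library, PRDM10 follows the letters A and B, and the leading transcripts of MECOM differ between the groups.

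Outside the 9 members, MECOM and PRDM11 were also examined. MECOM, which holds the PRDM3 (EVI1) gene and is a proto-oncogene of blood stem cells in mammals, stood at 5.80 and 6.93 TPM in ThrbCRM1 against 2.32 and 3.27 TPM in UbiqC (log2 fold change 1.16 ± 0.20, edgeR adjusted p = 0.00490). PRDM11 stood at 14.1 and 15.5 TPM in ThrbCRM1 against 17.1 and 19.3 TPM in UbiqC (-0.34 ± 0.12, adjusted p = 0.0624).

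MECOM was divided between different transcripts in the populations, a feature chosen after its values were seen. Transcript XM_015291749.1 held 45.6% and 57.8% of the MECOM counts in ThrbCRM1 A and B, and had 0.898 and 3.9e-07 estimated counts in UbiqC A and B. XM_015291753.1 held 41.7% and 64.1% in UbiqC A and B and 3.26% and 6.4e-07% in ThrbCRM1 A and B. The 2 transcripts therefore changed places between the sorted groups in both letters. The totals behind these shares were small, with 215 and 170 estimated counts of the former in ThrbCRM1 and 41.7 and 173 of the latter in UbiqC, and the shares were not tested.

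A general list of photoreceptor and bipolar factors was set beside PRDM1, and whether they act with PRDM1 was not tested. Of the 18 factors tested, 13 were higher in ThrbCRM1 and 4 lower, beside 19.9% and 20.9% of all tested genes. Their median log2 fold change was 0.94. OTX2, which drives photoreceptor and bipolar development, stood at 1091 and 1294 CPM in ThrbCRM1 against 60.6 and 58.4 CPM in UbiqC, which is a log2 fold change of 4.33 ± 0.11 (edgeR adjusted p = 1.4e-05). RXRG, a nuclear receptor of cones, rose by 6.32 ± 0.13 and THRB, whose element marked the sort, by 5.31 ± 0.17. PRDM1 lay between OTX2 and THRB in the size of its change.

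VSX1, a bipolar homeobox factor, went the other way and fell by 1.17 on the log2 scale, from 458 and 436 CPM in UbiqC to 204 and 192 CPM in ThrbCRM1. Bipolar markers as a whole summed to 367 and 360 TPM in ThrbCRM1 and to 844 and 810 TPM in UbiqC. Of 9 tested, 3 were higher and 3 lower, beside 19.9% and 20.9% of all tested genes.

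Around PRDM13, 19 factors of amacrine and horizontal cells were tested, with a median log2 fold change of 0.52. Of these, 10 were higher and 4 lower in ThrbCRM1, beside 19.9% and 20.9% of all tested genes. PTF1A, the bHLH factor of amacrine and horizontal cells, stood at 90.6 and 74.3 CPM in ThrbCRM1 against 2.48 and 2.29 CPM in UbiqC (log2 fold change 5.13 ± 0.16, edgeR adjusted p = 1.4e-05). LHX1, a homeobox factor of horizontal cells, rose by 3.58 ± 0.18, and MEIS2, a homeobox factor of amacrine cells among others, rose by 1.22 ± 0.07. EBF3, a factor of amacrine and ganglion cells, was lower in ThrbCRM1, with a log2 fold change of -1.51 ± 0.26. EBF3 was chosen after its values were seen. Without ThrbCRM1 B, 2 genes of this list were called lower.

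Corepressors, chromatin proteins and the signalling factor SMAD3 were also listed as partners of PRDM proteins. Of 17 tested, 6 were higher and 3 lower in ThrbCRM1, beside 40.8% of all genes called, and the median log2 fold change was 0.04 over genes that went both ways, from -1.14 (SMAD3) to 1.01 (CTBP2). CTBP2, a corepressor, rose by 1.01 ± 0.07 from 144 and 134 CPM in UbiqC to 289 and 272 CPM in ThrbCRM1 (edgeR adjusted p = 0.00016). TLE1, a Groucho-type corepressor, rose by 0.63 ± 0.07, and SKI, a corepressor of SMAD signalling, had a log2 fold change of -0.99 ± 0.14. Without ThrbCRM1 B, 3 of these genes were called higher.

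**Figure D4:**
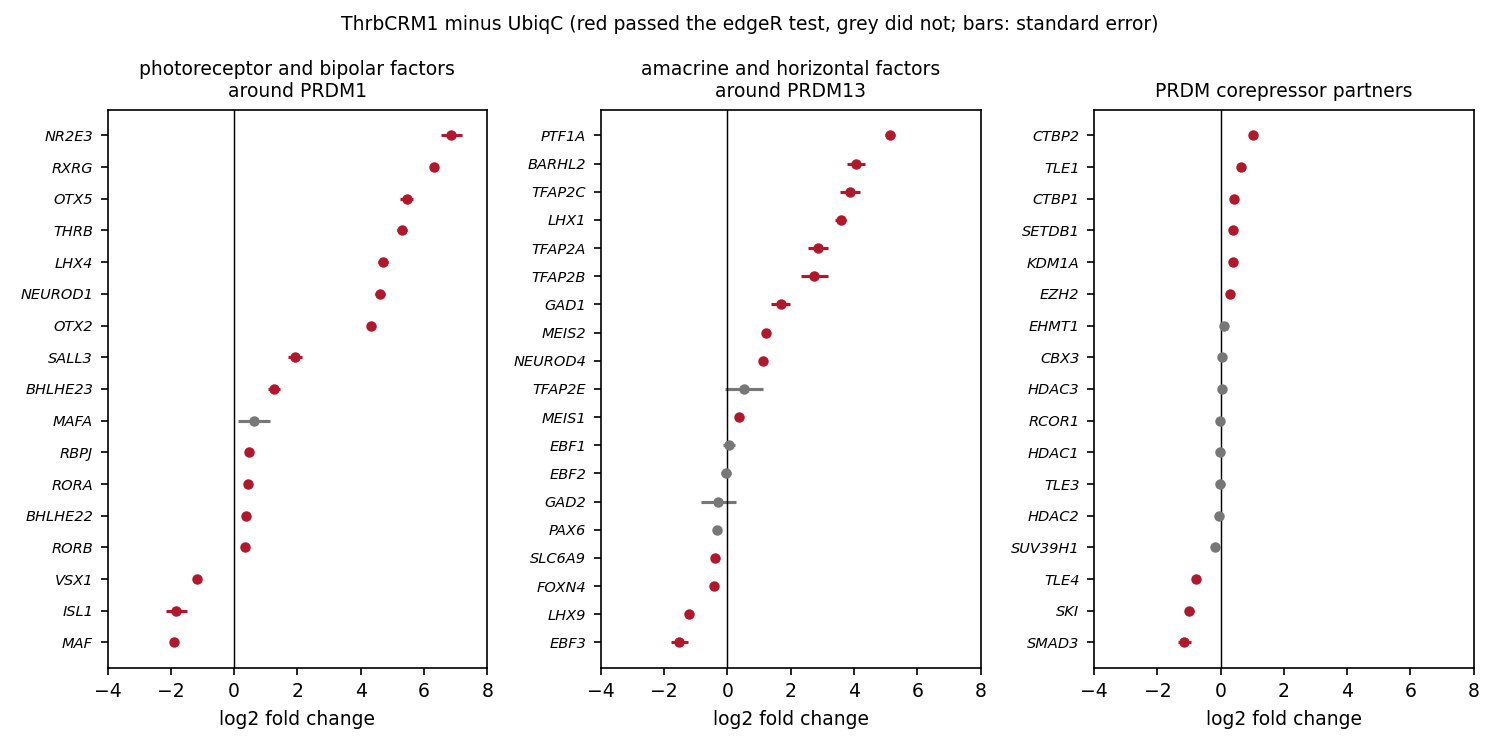
The log2 fold changes, ThrbCRM1 minus UbiqC, of tested genes in the lists around PRDM1 and PRDM13 and in the list of PRDM partners. Bars show the standard error, with red for genes that passed the edgeR test and grey for those that did not. OTX2 (4.33) and VSX1 (-1.17) lie on opposite sides, PTF1A (5.13) leads the amacrine and horizontal list, and the partners lie between -1.14 and 1.01.

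The genes nearest to PRDM1 in profile over the 4 libraries were FIBCD1, NANOS1, NEUROD1, CBFA2T3 and DIO2, among 8902 tested genes with a mean of at least 10 CPM. Likeness was the root mean square difference of log2 CPM after each gene was centred on its own mean, and was 0.117 for FIBCD1, 0.127 for NANOS1, 0.182 for NEUROD1, 0.182 for CBFA2T3 and 0.193 for DIO2. NEUROD1, a bHLH factor of photoreceptor and amacrine differentiation, stood at 490 and 644 CPM in ThrbCRM1 against 22.3 and 23.6 CPM in UbiqC. DIO2, the deiodinase that makes active thyroid hormone, stood at 81.5 and 121 CPM in ThrbCRM1 against 2.10 and 2.96 CPM in UbiqC. PRDM13 was in place 37, at 0.523. With 4 libraries in 2 groups, this measure mainly ranks genes by how near their fold change is to that of PRDM1.

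PRDM1 and PRDM13 differed in which ThrbCRM1 library was higher, a feature chosen after the values were seen. PRDM1 was lower in A than in B, by -0.38 on the log2 CPM scale (A minus B), as were OTX2 (-0.25), RXRG (-0.28), THRB (-0.38) and NEUROD1 (-0.39). PRDM13 was higher in A than in B, by 0.64, as were PTF1A (0.28), TFAP2A (0.89), TFAP2B (1.10), TFAP2C (0.74), BARHL2 (0.57) and LHX1 (0.39). In UbiqC the A minus B difference went the other way for PRDM13 (-0.40), TFAP2B (-0.76), TFAP2C (-0.54), BARHL2 (-0.37) and LHX1 (-0.32), and was 0.11 for PTF1A and 0.18 for TFAP2A. PRDM1 was lower in A than in B in UbiqC too (-0.34), as were THRB (-0.21), NEUROD1 (-0.08) and RXRG (-0.05), while OTX2 was at 0.05. TFAP2A, TFAP2B and TFAP2C are AP-2 factors and BARHL2 a homeobox factor of amacrine and horizontal cells. EGFP, in TPM, was also lower in ThrbCRM1 A than in B. TdTomato was lower in A than in B in both groups, at 3547 and 14505 TPM in ThrbCRM1 and 2124 and 5637 TPM in UbiqC. The part of either reporter in these differences was not tested.

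Counted over the lists, ThrbCRM1 A was above ThrbCRM1 B for 15 of 19 tested genes around PRDM13, for 8 of 18 around PRDM1, and for 50.9% of all tested genes. Among genes called higher with a log2 fold change above 1, A was above B for 41.6% of 1452 genes. Of such genes, it was so for 1 of 9 around PRDM1 and 6 of 9 around PRDM13. Some other lists leaned like the whole list around PRDM13. In those, A was above B for 11 of 14 ganglion cell markers, 5 of 7 neural crest and sensory markers and 6 of 9 endothelial and mesenchymal markers. The ganglion list shares EBF3, and the neural crest list TFAP2A, with the list around PRDM13. In UbiqC, A was above B for all 14 ganglion markers and for 12 of 19 genes around PRDM13. Photoreceptor markers (5 of 15) and blood and immune markers (1 of 6) leaned the other way in ThrbCRM1. A lean between the ThrbCRM1 libraries was thus not particular to the list around PRDM13. With 1 library on each side of this difference there is no replicate check, so it describes these libraries.

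**Figure D5:**
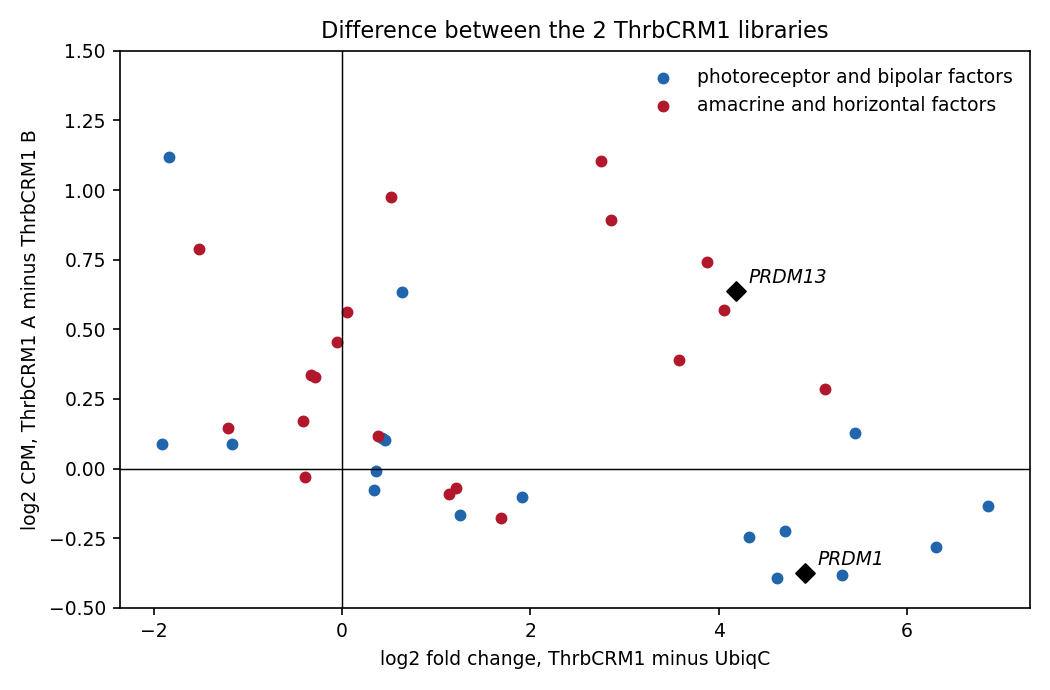
For tested genes of the lists around PRDM1 (blue) and PRDM13 (red), the log2 fold change between the populations (horizontal) and the log2 CPM difference of ThrbCRM1 A minus ThrbCRM1 B (vertical), with diamonds for both PRDM genes. PRDM13 lies above the zero line at 0.64 with PTF1A and the AP-2 genes, and PRDM1 lies below it at -0.38 with OTX2 and THRB.

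Other cell types that can express PRDM1 or its relatives were looked up by marker. The counts of each list stand beside 19.9% of all tested genes called higher and 20.9% called lower. Blood and immune markers, of interest because PRDM1 acts in B and T cells, summed to 9.03 and 8.82 TPM in ThrbCRM1 and to 8.09 and 6.50 TPM in UbiqC, and of 6 tested 2 were higher and 1 lower (1 higher without ThrbCRM1 B or UbiqC B, and all 3 calls were lost without ThrbCRM1 A). Of these PTPRC, the pan-leukocyte antigen CD45, stood at 10.9 and 11.8 CPM in ThrbCRM1 against 6.43 and 4.74 CPM in UbiqC. PAX5 was the other gene called higher. TAL1, the gene called lower, stood at 0.0647 and 0.128 CPM in ThrbCRM1 against 0.955 and 0.668 CPM in UbiqC. The median log2 fold change of the blood and immune list was 0.08. Endothelial and mesenchymal markers summed to 17.2 and 17.9 TPM in ThrbCRM1 and to 67.7 and 90.6 TPM in UbiqC, with 6 of 9 lower in ThrbCRM1 and 3 not passing the edgeR test. KDR, a receptor also made by retinal progenitors in chick, had a log2 fold change of -3.45 ± 0.16. Most of the UbiqC sums came from KDR, with 53.8 TPM for library A and 74.2 TPM for library B. Its ThrbCRM1 libraries had 6.05 (A) and 6.20 TPM (B), so most of the gap between the summed levels lay in this gene.

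Markers of neural crest and sensory neurons summed to 41.6 and 26.1 TPM in ThrbCRM1 and to 19.5 and 16.9 TPM in UbiqC, with 3 of 7 higher and 2 lower (1 lower without ThrbCRM1 A or UbiqC B), and TFAP2A and ISL1 of that list also belong to retinal lists. Ganglion cell markers summed to 1195 and 1012 TPM in ThrbCRM1 and to 696 and 587 TPM in UbiqC. Of 14 tested, 4 were higher (STMN2, NEFL, NEFM and SNCB) and 5 lower (RBPMS, RBPMS2, ISL1, EBF3 and GAP43). The median log2 fold change was -0.67, so the higher sum did not reflect most of the list. STMN2 alone stood at 557 and 504 TPM in ThrbCRM1 against 159 and 144 TPM in UbiqC. Pigment epithelium markers summed to between 19.1 and 22.9 TPM in all 4 libraries, with 2 of 9 higher and 2 lower (1 lower without any 1 of the 4 libraries, and 1 higher without ThrbCRM1 A). No marker with a row in the tables was at 0 in all 4 libraries. The part of any of these cell types in the PRDM values was not tested.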

How the data were processed

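PolyA RNA was measured in 4 libraries, grouped by their titles. The submitters' processing notes name kallisto, sleuth and galGal5, and tool versions are not given in the sources used here. For each transcript the authors deposited kallisto expected counts and TPM values, beside other values such as its length in bases. Their comparison table, also deposited by the authors, holds p-values, q-values and effects as natural log values. Of 57401 transcripts, 35667 had a gene name. Estimated counts and TPM were summed by gene, and counts were rounded. A RefSeq gene table of another assembly (bGalGal1.mat.broiler.GRCg7b) served for names, so no coordinates or sequences are given.

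The test was edgeR 4.0.16 in R 4.3.3 (TMM, filterByExpr with a minimum count of 10, quasi-likelihood F test, Benjamini-Hochberg at 0.05), with 2 residual degrees of freedom. It was checked on simulated data in which far fewer genes changed than were called here and all genes had the same dispersion. That check therefore does not cover changes on the scale of these data. The SE given with a log2 fold change was its absolute value divided by the square root of the quasi-likelihood F statistic. It was thus derived from the test and not estimated apart from it. Log2 CPM used a prior count of 2. Alternatives used DESeq2 1.42.0 and limma 3.58.1 among others. Reads shared with close relatives can be split between genes, so their counts are uncertain.

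The members and gene lists were chosen with earlier results of these data known, so list counts are descriptions and no set test was run. Named genes were the members, OTX2, VSX1, BHLHE22, PTF1A, RXRG and THRB, up to 3 genes with the smallest edgeR p in each list, and the 5 nearest to PRDM1. Others were named after their values were seen, as were EBF3 and the AP-2 genes. Listed symbols without a match, such as CRX and NRL, are not analysed here. Some genes that the rule or the lists take are counted in the lists but not reported or plotted here. The limits given for PRDM12 cover counting error only.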

Additional observations from a re-analysis of the deposited data

Results flagged for a closer look

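EGFP, which is no gene of the chick and was left out of the gene tables, had a mean of 12476 TPM in ThrbCRM1 and was far lower in UbiqC, a signal outside the comparison of genes. The ThrbCRM1 cells were sorted as positive for GFP, so the EGFP difference was built into the design. The PRDM12 transcript, which has no gene name in the deposited sheet and so entered no test, had 3 estimated counts in ThrbCRM1 in sum and 0 in UbiqC, which is within the limit that a count of 0 allows.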

How the results depend on the processing

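Each member kept its direction and its side of the threshold in 13 alternatives (12 for PRDM16, which the filter of at least 5 CPM removed), with 3 members higher and 1 lower in each. Log2 fold changes ranged from 4.72 to 5.11 for PRDM1 (highest adjusted p 0.00211), from 3.84 to 4.46 for PRDM13 (0.00271), from 0.45 to 0.55 for PRDM2 (0.0387) and from -1.60 to -1.17 for PRDM8 (0.0308). With each library left out in turn, between 1888 and 3137 genes were called higher and between 1958 and 3052 lower, with the lowest counts without ThrbCRM1 A, where a lone library is assumed to vary like the other group. With the letter as a replicate block, 4029 genes were higher and 4347 lower, and the log2 fold changes were 4.93 for PRDM1 and 4.09 for PRDM13. The labels do not say what the letters share, and the A minus B differences of the groups correlated at 0.167 across genes. The block and the transcript length offsets brought PRDM11 past the threshold (adjusted p 0.00628 and 0.0295). Of 484 values of 38 named genes that are not members, 463 kept direction and side, 19 lost the call, 2 gained it and 0 reversed. Depth limits PRDM12, which had 3 estimated counts in all.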
